A study of Mus musculus with 6 samples.

Results

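The Notch pathway was described in lung endothelial cells (ECs) through 10 genes given by name, which are the receptors Notch1 to Notch4, the ligands Dll1, Dll4, Jag1 and Jag2, and the targets Hes1 and Hey1. Each of the 10 symbols matched 1 of the 47729 genes in the count tables, and all 10 were among the 14625 genes that passed the filter on low counts. RNA was sequenced from lung ECs of 3 wild-type (WT) and 3 leene-knockout (KO) libraries, all from male mice aged 14 weeks that had received Angiotensin II (AngII) at 1000 ng/kg/min by osmotic pump for 2 weeks. AngII raises blood pressure, and the KO mice lack, in every cell type, the mouse region that corresponds to the human locus of LEENE, a long noncoding RNA of ECs. No library without AngII was among the samples, so a genotype difference here is one under AngII. Per the labels, CD31-enriched cells of 3 mice per group were pooled, whereas the study's methods describe sorting on CD144. The sources therefore leave unclear if each library is a pool or a single mouse, n counts libraries, and p-values measure the spread between libraries, which may be technical. The genes of the deleted locus were not analysed here.

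Notch receptors are transmembrane proteins that are activated when a ligand on a neighbouring cell binds them. Proteases then cut the receptor, and its intracellular part enters the nucleus, joins the DNA-binding protein RBPJ and turns on targets such as the repressors of the HES and HEY families. In blood vessels the pathway sets arterial identity and restrains sprouting, with Dll4 and Notch1 as its main EC pair, while Notch3 is chiefly a receptor of the mural cells that wrap the vessel.

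The libraries held 24464324 to 35184063 counts, and single members held 360 to 3616, so counting error was small beside the spread between libraries. All 15 EC markers had counts in every library, and their summed level was 2612 to 4574 counts-per-million (CPM) in WT and 2875 to 4600 CPM in KO. Markers of other lung cells were present too. The 5 alveolar type II markers summed to 4934, 46390 and 14400 CPM in WT libraries 1, 2 and 3, and to 36710, 44950 and 36570 CPM in the KO libraries. The 8 macrophage markers summed to 1477, 13110 and 4665 CPM in WT and to 11510 to 13450 CPM in KO, with the same order of the WT libraries. The 8 airway markers summed to 15460 to 40520 CPM in WT and to 33660 to 56900 CPM in KO. WT library 1 stood apart, with the lowest score on the first principal component (-63.4, against -29.4 to 35.4 in the others) and the highest TMM factor (1.37, against 0.874 to 1.04). In bulk RNA, fewer cells of a type and less RNA per cell cannot be told apart.

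None of the 10 Notch genes passed the test between genotypes. In edgeR's quasi-likelihood fit with p-values adjusted by the Benjamini-Hochberg method, 16 of the 14625 genes (0.109%) had an adjusted p under 0.05 (0.0752% lower and 0.0342% higher in KO), and the smallest adjusted p among the members was 0.497. At an unadjusted p under 0.05 the count was also 0, where 10.3% of all genes lay (4.68% lower and 5.62% higher in KO), and DESeq2 called 0 members, where it called 1.21% of the genes to which it gave an adjusted p. The count of members at an unadjusted p under 0.05 was 2 of 10 by DESeq2 and by edgeR's likelihood ratio test and 1 of 10 by limma-voom, where 6.49%, 10.7% and 11.6% of all genes lay. The share for DESeq2 is over 26134 genes, more than passed the filter. On the genes kept by edgeR's filter DESeq2 gave 1 of 10 members, where 1718 of 14623 genes lay. In none did the CPM values of the 3 WT libraries lie apart from those of the 3 KO libraries, as they did for 17.8% of all genes (9.2% lower and 8.59% higher in KO). The fitted difference was above 0 for 6 members and below 0 for 4, where 45.9% of all genes lay, and its median was 0.16 on the log2 scale, against 0.03 over all genes tested. This median was not stable. It was 0.00 without WT library 1 (5 members above 0) and 0.08 without KO library 1. Without WT library 2 it was 0.10, and without WT library 3 it was 0.27. With the alveolar marker level as a covariate it was 0.00 (5 above 0). It was 0.02 with total-count scaling and -0.08 with EC-marker scaling (4 above 0), but these scalings moved the median of all genes to -0.13 and -0.23. In both, 6 members lay above the median of all genes, as in the main fit. The standard errors of the members, from 0.14 to 0.34 on the log2 scale, leave wide intervals, so the test does not show that the levels were the same.

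**Figure D1:**
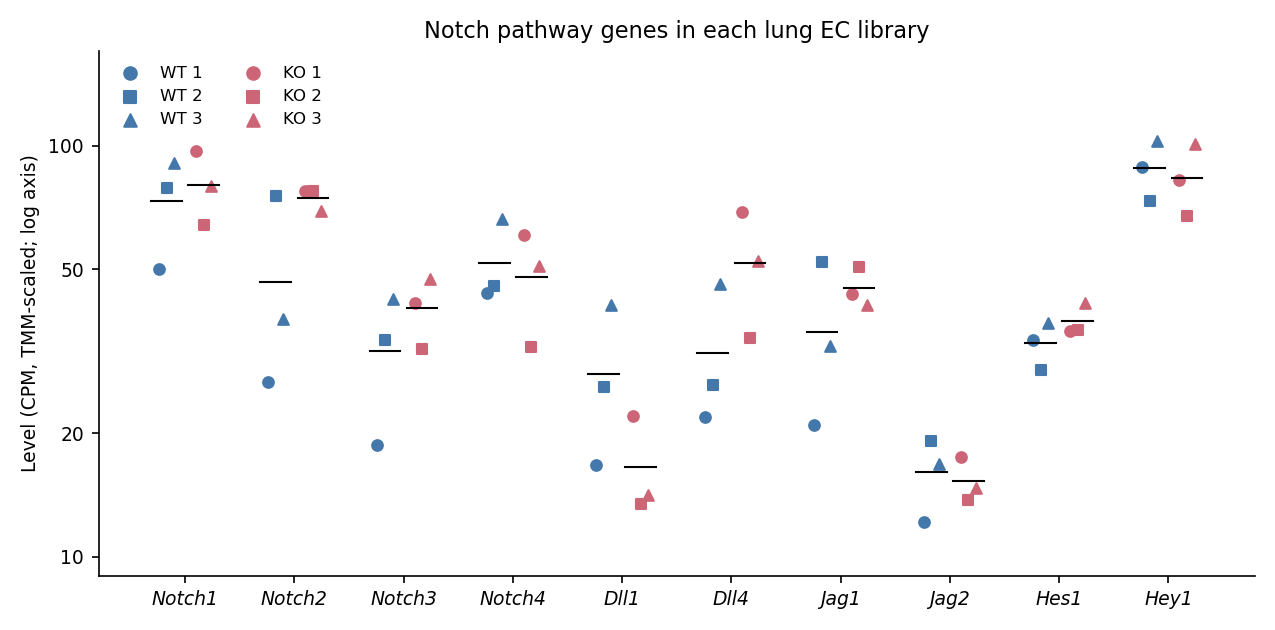
Level of each Notch gene in the 6 libraries, in CPM scaled by TMM on a log axis. Each symbol is 1 library (blue, WT; red, KO; shape, replicate number) and each black line is a group mean; the WT and KO symbols overlap in range for every gene, and Dll1 and Dll4 have the means that lie farthest apart in opposite directions.

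Per length, the targets were the most abundant members. Levels between genes were compared in transcripts-per-million (TPM), computed from the counts and the exon length of each gene. Hey1 had a median of 109.7 TPM over the 6 libraries (range 67.8 to 174.8) and Hes1 of 73.9 TPM (50.01 to 106.7). Hey1 lay above Hes1 in 6 of 6 libraries. Dll4 came next with a median of 45.0 TPM (24.3 to 70.0), below Hes1 in 5 of 6 libraries and above Jag1 in 5 of 6. The other 7 genes had medians between 16.9 TPM for Jag2 and 28.3 TPM for Jag1. Within this range the neighbours, in the order Jag1, Notch4, Notch2, Notch1, Dll1, Notch3 and Jag2, stood in that order in 3 or 4 of 6 libraries only, so their ranks do not differ beyond the spread.

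Among the receptors, no single gene dominated. Notch4, a receptor largely restricted to endothelium, was above Notch3 in 6 of 6 libraries and above Notch1 in 5 of 6, yet the median ratio to it was 0.714 for Notch3 and 0.899 for Notch1. The mean share of the summed receptor TPM lay between 19.4% ± 2.90 for Notch3 and 33.3% ± 7.29 for Notch4 in WT (SD, n = 3). In KO it lay between 21.3% ± 2.69 for Notch3 and 30.0% ± 5.71 for Notch2 (SD, n = 3).

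Notch1 (ENSMUSG00000026923, chr2:26457903-26516663, GRCm38, minus strand), the principal EC receptor, had 50.2, 79.0 and 90.7 CPM in WT libraries 1 to 3, against 97.2, 64.0 and 79.9 CPM in KO libraries 1 to 3. The groups overlapped, with both the lowest and the second highest value in WT. The difference, KO minus WT, was 0.13 on the log2 scale (SE 0.25, 95% interval -0.44 to 0.71, adjusted p 0.853). Its direction turned when WT library 1 or KO library 1 was left out, with EC-marker scaling and with the alveolar covariate.

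Notch2 (ENSMUSG00000027878, chr3:98013527-98150361, plus strand), a receptor found in many lung cell types, had 26.5, 75.3 and 37.9 CPM in WT, against 77.4, 77.6 and 69.2 CPM in KO. The 3 KO libraries were close together and WT library 2 was among them, while WT libraries 1 and 3 were lower. The fitted fold was 1.60 (95% interval 0.921 to 2.79; log2 0.68, SE 0.34, adjusted p 0.533). Without WT library 2 it was 1.18 on the log2 scale (SE 0.18, adjusted p 0.0223), in a fit in which 791 genes (5.29%) passed instead of 16. Without WT library 1 it was 0.39 (SE 0.27). WT library 2 is also the WT library with the most alveolar type II and macrophage marker RNA. With the mean log2 level of the alveolar markers as a covariate the difference in Notch2 was 0.19 on the log2 scale (SE 0.14, adjusted p 0.660). That level was 9.37, 12.6 and 10.9 in WT and 12.2, 12.5 and 12.2 in KO, so it partly goes with genotype. With 3 against 3 libraries the covariate cannot separate them, and a cause was not tested.

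Notch3 (ENSMUSG00000038146, chr17:32120820-32166880, minus strand), the mural receptor, had 18.7, 33.7 and 42.4 CPM in WT, against 41.5, 31.9 and 47.5 CPM in KO. WT library 1 was the low one and the remaining 5 overlapped (log2 0.35, SE 0.29, adjusted p 0.669). The difference was 0.08 without WT library 1 and 0.61 without WT library 3. All 12 mural markers had counts in every library, with a summed level of 307.0 to 381.0 CPM in WT and 238.5 to 342.3 CPM in KO. These markers did not move together, with fitted differences from -1.06 to 0.88 on the log2 scale, 5 above 0 and 7 below. By edgeR's quasi-likelihood test 3 of 12 had an unadjusted p under 0.05, all lower in KO, where 4.68% of all genes lay. Relative to the mural markers of the same library, the log2 ratio of Notch3 was -1.03, -0.25 and -0.02 in WT and 0.19, -0.17 and -0.04 in KO. These values overlapped (exact permutation test, two-sided p 0.3, where 3 against 3 libraries cannot give less than 0.1).

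Notch4 (ENSMUSG00000015468, chr17:34564268-34588503, plus strand) had 43.8, 45.7 and 66.1 CPM in WT, against 60.5, 32.4 and 50.9 CPM in KO. The lowest library was a KO one and the highest a WT one, with the others mixed between them (log2 -0.11, SE 0.26, 95% interval -0.71 to 0.48, adjusted p 0.886). The direction turned without WT library 3 and without KO library 2.

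The 2 Delta-like ligands had fitted differences of similar size in opposite directions, beside that of Notch2, which was larger than both by limma-voom (0.81), with the replicate block (0.82) and without WT library 2. Dll4, the ligand of sprouting and arterial ECs, was higher in mean and Dll1, a ligand tied to arterial growth after birth, was lower, though neither passed the test. The sequences just upstream of their start sites are shown because the ratio of these ligands is described further on. They are 250 bases each, 5′ to 3′ on the strand of the gene, from RefSeq on GRCm38.p6. Capitals mark matches to CACGNG, a site form bound by HES and HEY repressors, or to CACNAG, the N-box of HES proteins, searched on both strands. The Dll4 window is chr2:119325534-119325783 on the plus strand, and the Dll1 window is chr17:15376933-15377182 on the minus strand, the more distal of the 2 starts listed for Dll1. That start lies beyond the end of the counted Dll1 gene at 15376872. Bases shortly after it were found in 0 of 6 GENCODE transcripts of Dll1, against 1 of 6 for the proximal start. The bases compared for the distal start, at 15376883 or above, also lie beyond that gene end, so the 0 only restates its position.
Dll4: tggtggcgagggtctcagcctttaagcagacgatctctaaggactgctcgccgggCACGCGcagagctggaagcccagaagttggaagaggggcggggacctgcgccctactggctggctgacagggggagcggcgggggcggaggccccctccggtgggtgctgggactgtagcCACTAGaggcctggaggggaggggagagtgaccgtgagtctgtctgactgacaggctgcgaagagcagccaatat
Dll1: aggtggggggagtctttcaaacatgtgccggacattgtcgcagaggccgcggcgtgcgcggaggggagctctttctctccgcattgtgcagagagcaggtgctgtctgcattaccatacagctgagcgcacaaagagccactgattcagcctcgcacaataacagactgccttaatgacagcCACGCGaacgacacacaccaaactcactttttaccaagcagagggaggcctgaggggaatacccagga
The Dll4 window holds CACGCG from 195 to 190 bases before the start and CACTAG from 75 to 70 bases before it. In the Dll1 window CACGCG lies from 68 to 63 bases before the start. The window of the proximal Dll1 start, not shown, holds CACGGG from 105 to 100 bases before that start. Windows were found for 8 members (9 starts, since Dll1 has 2), and Hes1 and Hey1 had none. CACGNG was present in 6 of the 9 windows and in 23.5% of 32851 windows of the same length, CACNAG in 4 of 9 and in 36.7%, and TGGGAA, the core that RBPJ binds, in 0 of 9 and in 21.6%. A match is a description of letters and no evidence of binding. Both windows lie within genes annotated on the opposite strand, Gm14207 at Dll4 (90 to 107 counts per library) and A930024N18Rik at Dll1 (24 to 50 counts), which the stranded counting kept apart.

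Dll4 (ENSMUSG00000027314, chr2:119325784-119335962, plus strand) had 21.9, 26.2 and 46.0 CPM in WT, against 69.0, 33.99 and 52.4 CPM in KO. KO libraries 1 and 3 were above every WT library, and KO library 2 lay below WT library 3. The fitted fold was 1.66 (95% interval 0.964 to 2.85; log2 0.73, SE 0.34, unadjusted p 0.0637 and adjusted p 0.503 by edgeR). With 1 library left out the log2 difference ranged from 0.44, without KO library 1, to 1.09, without WT library 3. With the alveolar covariate it was 0.70 (SE 0.41, adjusted p 0.576).

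Dll1 (ENSMUSG00000014773, chr17:15367354-15376872, minus strand) had 16.7, 25.9 and 40.9 CPM in WT, against 22.0, 13.4 and 14.1 CPM in KO. KO libraries 2 and 3 were below every WT library, and KO library 1 lay between WT libraries 1 and 2. The fitted fold was 0.594 (95% interval 0.346 to 1.02; log2 -0.75, SE 0.34, unadjusted p 0.0568 and adjusted p 0.497 by edgeR). Without WT library 3, the highest, the log2 difference was -0.38 (SE 0.28), and without WT library 1, the lowest of its group, it was -1.02 (SE 0.27, adjusted p 0.357). With the alveolar covariate it was -0.94 (SE 0.37, adjusted p 0.407).

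Jag1 (ENSMUSG00000027276, chr2:137081456-137116644, minus strand), a Serrate-type ligand of ECs, mural and epithelial cells, had 20.9, 52.2 and 32.6 CPM in WT, against 43.5, 50.7 and 40.9 CPM in KO. Its highest and its lowest value were both in WT, again libraries 2 and 1 (log2 0.35, SE 0.30, adjusted p 0.679). The difference was 0.08 without WT library 1 (SE 0.22), 0.72 without WT library 2 (SE 0.21, adjusted p 0.0930) and -0.10 with the alveolar covariate (SE 0.13, adjusted p 0.833).

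Jag2 (ENSMUSG00000002799, chr12:112908590-112929495, minus strand), the related Serrate-type ligand, was the member with the lowest median TPM. It had 12.1, 19.1 and 16.9 CPM in WT, against 17.5, 13.7 and 14.7 CPM in KO. All KO values fell inside the WT range (log2 -0.07, SE 0.20, 95% interval -0.52 to 0.39, adjusted p 0.916). Without WT library 1 the difference was -0.24 (SE 0.16).

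**Figure D2:**
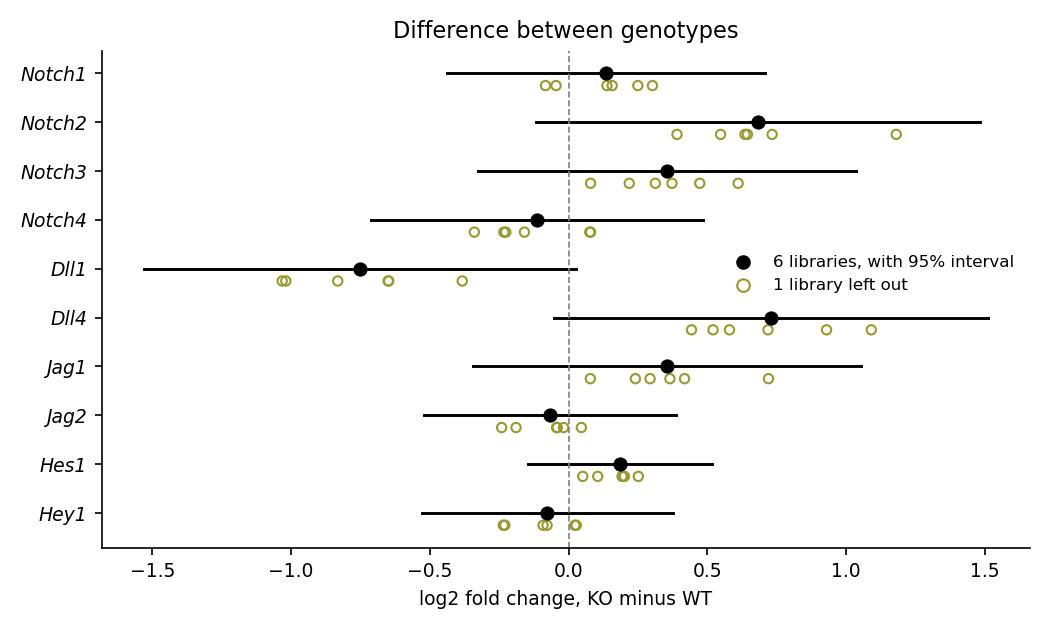
Difference of each Notch gene between genotypes as log2 fold change, KO minus WT (black point), with its 95% interval (line) from edgeR's quasi-likelihood fit, and the values with 1 library left out (open circles). Every interval holds 0; the points of Notch2 and Dll4 lie farthest to the right at 0.68 and 0.73, that of Dll1 farthest to the left at -0.75, and the circles of Dll1, Dll4 and Notch2 stay on the side of their point.

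Both targets overlapped between genotypes. Hes1 (ENSMUSG00000022528, chr16:30064384-30067796, plus strand), a repressor switched on by Notch and by other signals, had 33.7, 28.4 and 37.0 CPM in WT, against 35.4, 35.6 and 41.5 CPM in KO. The highest of its 6 CPM values was 1.46-fold the lowest, and the genotypes differed by 0.18 on the log2 scale (SE 0.14, 95% interval -0.15 to 0.52, adjusted p 0.647). This value was 0.05 to 0.25 with 1 library left out, lowest without WT library 2. Hey1 (ENSMUSG00000040289, chr3:8663359-8667256, minus strand), a repressor typical of arterial ECs, had 88.5, 73.4 and 102.4 CPM in WT, against 82.4, 67.3 and 100.8 CPM in KO. In both groups library 3 was the highest and library 2 the lowest, and the ranges nearly coincided (log2 -0.08, SE 0.19, 95% interval -0.53 to 0.38, adjusted p 0.900). As folds of KO over WT, the 95% intervals were 0.903 to 1.43 for Hes1 and 0.693 to 1.30 for Hey1. Per length and within a library, the log2 ratio of Hes1 to Notch1 differed between genotypes by 0.03 (exact permutation test, two-sided p 0.9) and that of Hey1 to Notch1 by -0.24 (p 0.6 by the same test), and both overlapped.

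The Dll4 and Dll1 transcripts of one library stood in a ratio that separated the genotypes. This ratio was chosen after the values had been seen. Counts were divided by exon length. Both counts came from the same library, so the ratio does not depend on library scaling. The log2 ratio of Dll4 to Dll1 was 0.52, 0.15 and 0.30 in WT libraries 1, 2 and 3, and 1.78, 1.47 and 2.02 in KO libraries 1, 2 and 3. All KO values were above all WT values, and Dll4 was the more abundant in 6 of 6 libraries. The mean was 0.32 ± 0.19 in WT and 1.76 ± 0.28 in KO (SD, n = 3), a difference of 1.44 on the log2 scale or 2.71-fold. The exact permutation test gave a two-sided p of 0.1, the smallest that 3 against 3 libraries allow. With any 1 library left out the log2 difference was 1.30 to 1.58, and the groups stayed apart since leaving out a library cannot join them. Of all 106938000 pairs of genes tested, 17.9% had log2 ratios that did not overlap between genotypes, so separation as such is common in these libraries. Among the 45 pairs of members 12 were separated (26.7%), of which 5 involved Dll1 and 4 involved Dll4 (the pair of both counts in each), and the smallest Benjamini-Hochberg adjusted value over the 45 exact p-values was 0.375. The 3 planned ratios between ligands or receptors overlapped. They differed by 0.29 on the log2 scale for Dll4 to Jag1 (two-sided exact p 0.6), by -0.50 for Jag2 to Jag1 (exact p 0.2) and by -0.29 for Notch4 to Notch1 (exact p 0.3).

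The shares of the ligand pool rest on the same counts and lengths. Dll1 made up 24.4%, 23.1% and 30.9% of the summed TPM of the 4 ligands in WT and 14.9%, 13.2% and 12.1% in KO. The highest KO share was below the lowest WT share. This is not independent of the ratio above, and how often such shares separate among other genes was not computed. Dll4 made up 35.0%, 25.5% and 38.0% in WT and 51.3%, 36.6% and 49.3% in KO, where KO library 2 lay just under WT library 3. The summed ligand level overlapped, at 119.2 ± 33.5 TPM in WT and 107.9 ± 28.6 TPM in KO (SD, n = 3). Jag1 and Jag2 shares overlapped as well.

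**Figure D3:**
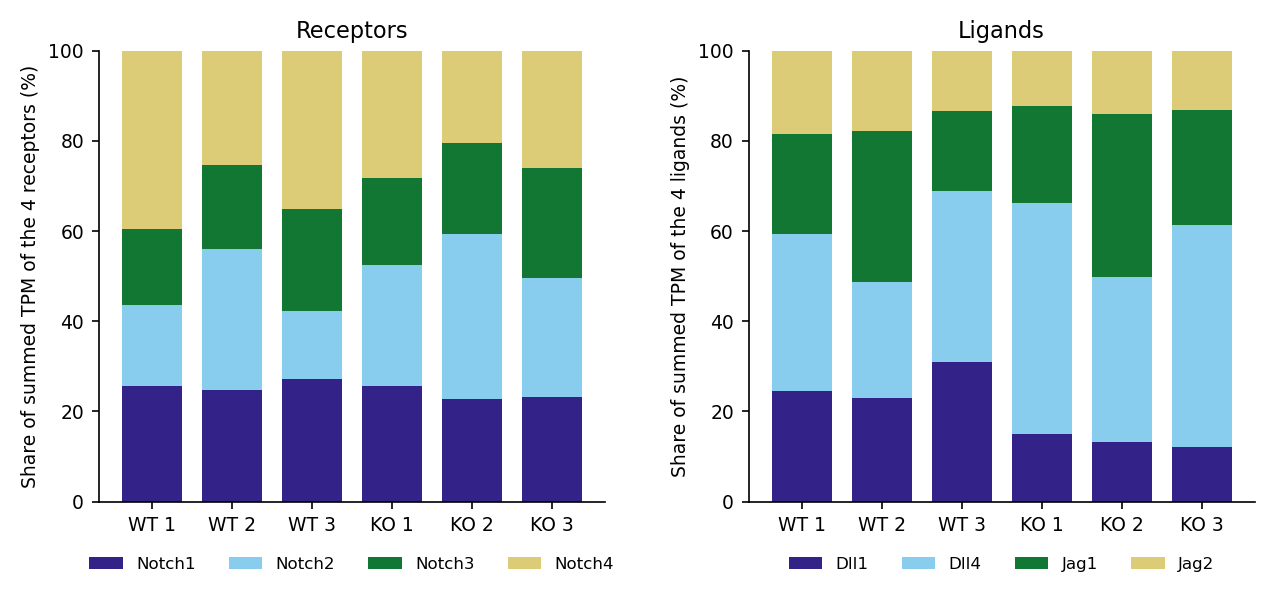
Share of each gene in the summed TPM of the 4 receptors (left) and of the 4 ligands (right), in percent, with 1 bar per library. The Dll1 segment is 23.1% to 30.9% in the WT bars and 12.1% to 14.9% in the KO bars; the share of each receptor overlaps between genotypes.

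Set against the 15 EC markers of the same library, a comparison also added after the values had been seen, 3 of 10 members were separated between genotypes. This was so for 5.49% of all genes tested, with 1.89% higher and 3.6% lower in KO. That share is over genes of every cell type, and a share among EC genes alone was not computed. Dll4 had a log2 ratio to the EC markers of -2.32, -2.36 and -2.24 in WT and of -1.64, -1.99 and -1.78 in KO. The WT values lay close together and all KO values were above them, with a difference of 0.51 on the log2 scale. For Dll1 the ratio was -2.84, -2.51 and -2.54 in WT and -3.42, -3.46 and -3.80 in KO, a difference of -0.93 with all KO values below. Notch4 had -2.38, -2.63 and -2.78 in WT and -2.89, -3.12 and -2.88 in KO, a difference of -0.37 with a narrow gap between the groups. The exact two-sided p was 0.1 for each of the 3, the smallest possible. The ratio of Notch1 to the EC markers was -3.01, -2.66 and -3.15 in WT and -3.03, -2.96 and -3.05 in KO, so it overlapped (difference -0.08, exact p 0.8). Among the EC markers is Kdr, itself 0.87 higher in KO on the log2 scale (SE 0.24, unadjusted p 0.00640, adjusted p 0.313 by edgeR). In the fit across all genes with libraries scaled to the EC markers the median of all genes was -0.23, and there Dll1 differed by -0.93 (SE 0.44), Dll4 by 0.51 (SE 0.43) and Notch4 by -0.37 (SE 0.43), each with an adjusted p of 0.953.

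**Figure D4:**
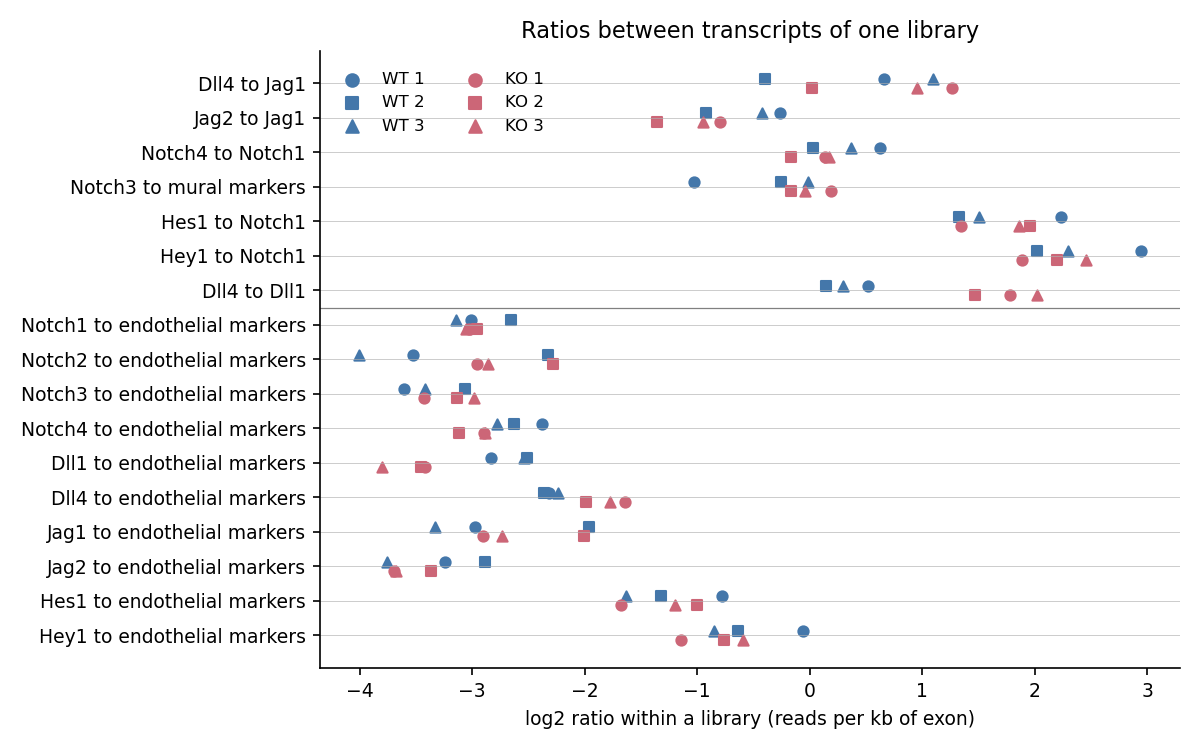
Log2 ratios within each library, on reads per kb of exon, for pairs of Notch genes and for Notch3 against mural markers (above the line) and for each Notch gene against the EC markers (below the line). Each symbol is 1 library (blue, WT; red, KO; shape, replicate number). The red and blue symbols do not overlap for Dll4 to Dll1, nor for Dll4, Dll1 and Notch4 to the EC markers, and overlap in the other rows.

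Members differed in which genes they resembled across the 6 libraries. Likeness was the root mean square difference between centred log2 CPM profiles over 5507 genes with a mean log2 CPM of at least 4, and it is a description over 6 libraries that share depth and cell makeup. It is not scaled to the spread of each gene, so genes that vary little come out close whatever their pattern. The SD of the log2 profile was 0.18 for Hes1, 0.24 for Hey1 and Jag2 and 0.66 for Notch2. With that limit, Hes1 and Hey1 were the closest pair of members at 0.18 on the log2 scale, followed by Notch1 and Jag2 (0.18), Notch1 and Notch3 (0.21) and Notch2 and Jag1 (0.22). Dll1 and Notch2 were the most unlike at 0.92, and Dll1 and Dll4 differed by 0.74. Outside the lists, Notch1 was closest to Podxl, which encodes podocalyxin of the EC surface (0.06), then to Scarb1 and Vcl. Dll4 was closest to the EC gene Clec14a (0.12), then to Hmcn1 and Tnfsf10. Dll1 had the loosest matches, among them Sema7a at 0.23 and Lyve1, the hyaluronan receptor of lymphatic vessels, at 0.24. Notch4 was closest to Ttyh3, Sdc3 and the VEGF receptor gene Flt1 (0.11 to 0.13), and Notch3 to Itga1, Nid1 and Tgfbr3 (0.11 to 0.12). Notch2 was closest to Man2b1, a lysosomal mannosidase gene, Selenon and Clstn1 (0.05 to 0.06). Jag1 was closest to Stt3b, Eif2ak3 and Emc3 of the endoplasmic reticulum (0.03 to 0.05). Jag2 had Leprotl1, Eogt and Arl8b, Hes1 had Cuedc1, Stard4 and Zranb1, and Hey1 had Rnf169, Pde3a and Smndc1 as nearest genes, all within 0.08.

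Of 53 other genes of the pathway, 47 were tested and 0 passed the test. By edgeR's quasi-likelihood test 26 were higher and 21 lower in KO in fitted value, with a median of 0.08 on the log2 scale. With total-count scaling 19 were higher and with EC-marker scaling 14, but 26 lay above the median of all genes in each, as in the main fit. By the quasi-likelihood test 4 had an unadjusted p under 0.05 (8.51%, against 10.3% of all genes). DESeq2 called 0 as well, with 5 of the 51 genes it fitted at an unadjusted p under 0.05, where 6.49% of 26134 genes lay. On the genes kept by edgeR's filter DESeq2 gave 6 of 47, where 1718 of 14623 genes lay. The CPM values of 7 genes did not overlap between genotypes. Lfng, Aph1c and Rbpj were the 3 higher ones in KO (8.59% of all genes), and 4 were lower (9.2% of all genes), among them Dtx2, L3mbtl3 and Nrarp. The 6 genes that did not pass the filter were Dll3 and Hes5, without a count in any library, and Dlk1, Dlk2, Dner and Hes7, each under 0.6 CPM in every library.

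Among the glycosyltransferases that modify Notch receptors, the largest fitted difference was that of Lfng, the lunatic fringe gene, whose product alters which ligands a receptor answers to. Lfng had 8.01, 9.51 and 16.01 CPM in WT, against 23.7, 17.7 and 21.6 CPM in KO. All KO values were above all WT values, and the fitted difference was 0.92 on the log2 scale (SE 0.27, 95% interval 0.30 to 1.53, unadjusted p 0.00906, adjusted p 0.348). It ranged from 0.72 to 1.25 with 1 library left out, and was 0.87 with the alveolar covariate. Mfng, the manic fringe gene, was above Lfng per length in 6 of 6 libraries. It had 21.1 to 31.0 CPM in WT and 22.0 to 29.8 CPM in KO and overlapped (log2 0.07, SE 0.18). The fitted values of all 5 glycosylation genes were above 0, with a median of 0.26 on the log2 scale (0.09 without WT library 1 and 0.42 without WT library 2), but 2 of the 5 lay below 0 with EC-marker or total-count scaling, which moved the median of all genes to -0.23 and -0.13.

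The 10 genes of receptor cleavage all had fitted values above 0, with a median of 0.37 on the log2 scale and 0 of 10 at an unadjusted p under 0.05. Adam10, the sheddase gene for the first cut after ligand binding, had 45.4, 94.7 and 74.1 CPM in WT, against 105.4, 105.9 and 85.4 CPM in KO (log2 0.47, SE 0.26). Ncstn, a gamma-secretase gene, had 39.9, 123.1 and 75.6 CPM in WT, against 111.4 to 135.1 CPM in KO (log2 0.63, SE 0.36). Both were highest in library 2 among the WT libraries and lowest in library 1, which is also the order of the alveolar type II markers. A part of alveolar cells in these values was not tested, and the alveolar level partly goes with genotype. With the alveolar covariate the median was 0.06 and 6 of 10 stayed above 0. With EC-marker scaling 7 of 10 lay above 0, while 10 of 10 lay above the median of all genes, which was -0.23 there. Without WT library 1 the median was 0.14, with 7 of 10 above 0 and 0 of 10 at an unadjusted p under 0.05. Without WT library 2 the median was 0.66 and 7 of 10 had an unadjusted p under 0.05, where 21.3% of all genes lay. In that fit, in which 5.29% of all genes passed, Adam17, the gene of a related sheddase, passed the test (log2 0.82, SE 0.19, adjusted p 0.0479).

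In the nucleus, Rbpj, the gene of the DNA-binding partner of Notch, had 14.5, 13.4 and 14.1 CPM in WT, against 15.8, 15.96 and 17.4 CPM in KO. All KO values were higher by a small margin (log2 0.23, SE 0.12, 95% interval -0.05 to 0.51, adjusted p 0.548). Of 7 corepressor genes 3 had an unadjusted p under 0.05, each with a lower value in KO, where 4.68% of all genes lay. The count was 2 of 7 without WT library 1, KO library 2 or KO library 3. Without WT library 2 it was 4 of 7, where 21.3% of all genes lay in either direction. It was also 2 of 7 with EC-marker scaling and with the alveolar covariate. The median was -0.11 in the main fit and -0.02 with that covariate. L3mbtl3, whose product recruits a histone demethylase to RBPJ, had 32.9, 22.2 and 30.8 CPM in WT, against 15.6, 17.7 and 19.9 CPM in KO, without overlap (log2 -0.69, SE 0.18, unadjusted p 0.00558, adjusted p 0.303). It passed the test in the same fit without WT library 2 (log2 -0.88, SE 0.15, adjusted p 0.0271). Spen, a large RBPJ-binding repressor, had 32.6 to 41.8 CPM in WT and 21.9 to 32.8 CPM in KO, where the ranges just overlapped (log2 -0.50, SE 0.18, unadjusted p 0.0285, adjusted p 0.451). The other 4 corepressor genes lay between -0.11 and 0.18.

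Of the 5 other targets tested 2 were higher and 3 lower in KO in fitted value, and 0 had an unadjusted p under 0.05. Nrarp, a feedback inhibitor that is induced by Notch, had 58.7, 60.8 and 64.9 CPM in WT, against 51.4, 45.2 and 55.1 CPM in KO. All KO values were lower (log2 -0.28, SE 0.13, 95% interval -0.58 to 0.01, adjusted p 0.498). Heyl, a target typical of mural cells, had 23.5, 19.5 and 19.7 CPM in WT, against 10.9, 10.4 and 20.7 CPM in KO. KO library 3 lay within the WT range and the other 2 were below it (log2 -0.58, SE 0.27, adjusted p 0.508; -0.97 without KO library 3). Hey2, an arterial target, had 4.06 to 5.96 CPM in WT and 3.61 to 6.18 CPM in KO (log2 0.04, SE 0.26). The 4 ubiquitin ligase genes that act on the ligands lay between -0.27 and -0.06, and the 9 genes of receptor turnover between -0.30 and 0.45, none at an unadjusted p under 0.05.

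**Figure D5:**
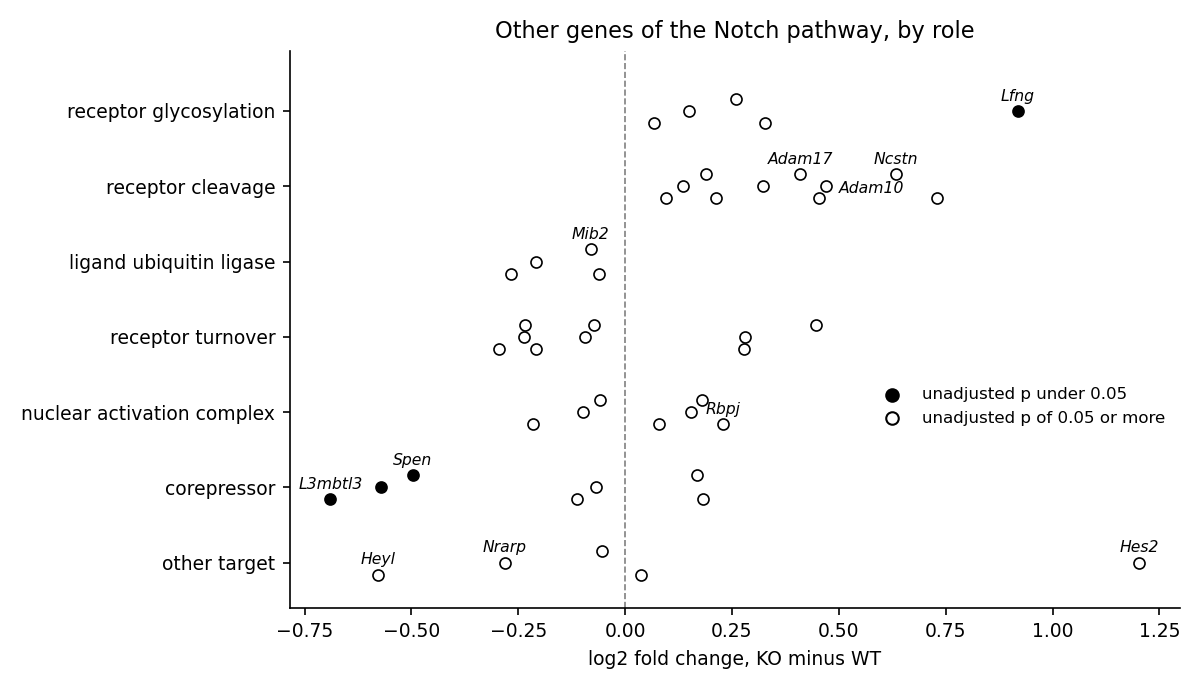
Log2 fold change, KO minus WT, of the 47 tested other genes of the Notch pathway, 1 circle per gene and 1 row per role. Filled circles are genes with an unadjusted p under 0.05 by edgeR's quasi-likelihood test. They are Lfng at 0.92 and 3 corepressor genes at -0.50 to -0.69, Spen and L3mbtl3 among them. The receptor cleavage genes all lie right of 0, where with EC-marker scaling 7 of 10 and with total-count scaling 9 of 10 do. With either scaling 10 of 10 lie above the median of all genes.

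Genes that act around the pathway in vessels were counted in the same fit. Of 10 arterial genes 5 were higher and 5 lower, with 1 of 10 at an unadjusted p under 0.05, a share near the 10.3% of all genes. It was the kinase gene Bmx, at 13.5, 13.1 and 10.1 CPM in WT and 15.0, 24.7 and 18.9 CPM in KO (log2 0.67, SE 0.21, adjusted p 0.374). Efnb2, the arterial ephrin gene and a known Notch target, had 121.5 to 162.7 CPM in WT and 101.9 to 146.2 CPM in KO (log2 -0.09, SE 0.20). Of 7 venous genes and of 8 transcription factor genes that act upstream of Dll4 in ECs, 0 had an unadjusted p under 0.05.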

How the data were processed

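Groups and replicate numbers came from the sample labels. The authors deposited raw counts for each gene in separate tables by library. According to the file headers these came from featureCounts of Subread 2.0.0 with reverse-strand counting over exons of Ensembl release 84 (GRCm38), and the submitters' processing notes name bcl2fastq 2.18 and STAR 2.5.4b. Reads over several genes were not counted. Symbols came from GENCODE's annotation of the same build (47224 of 47729 genes).

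Genotypes were compared with edgeR 4.0.16 in R 4.3.3 (filterByExpr, TMM, glmQLFit and glmQLFTest, genotype as the only term), and p-values were adjusted over 14625 genes by the Benjamini-Hochberg method. Standard errors and 95% intervals came from that fit. DESeq2 1.42.0 and limma-voom 3.58.1 were alternatives, beside other scalings, filters, the replicate number as a block and each library left out. The steps were tested on simulated counts. TPM was computed from counts and exon lengths without mitochondrially encoded genes, which took 37.4% to 54.5% of the counts. Within-library ratios used counts plus 0.5 per kb and a two-sided exact permutation test over libraries. List levels are sums of CPM.

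The members and lists were chosen with earlier results of these data known. Beside the 10 members, the text names other pathway genes with the smallest p and a set of core ones, the leading genes of the other lists, and the 3 nearest profiles of each member. Adam17 and Dtx2 were named after their values had been seen, and a few genes that this choice covers are not reported here. No pair of replicates was alike within sampling noise (the lowest chi-square was 40.3 per degree of freedom).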

Additional observations from a re-analysis of the deposited data

How the results depend on the processing

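The count of Notch members that passed the test was 0 in every alternative except without WT library 2, where it was 1 of 10 (Notch2). The count of the other pathway genes was also 0 except there, where it was 2 of 48 tested. In that fit 791 of 14950 genes (5.29%) passed. The count over all genes, 16, was less stable. It was 211 by the likelihood ratio test, 187 by DESeq2, 300 by DESeq2 on the genes kept by edgeR's filter (added after the data had been seen), 26 by limma-voom, 26 with RLE, 31 with upper-quartile, 123 with total-count (61 higher and 62 lower in KO, against 5 and 11) and 39 with EC-marker scaling, 152 without a filter on low counts and 49 with the alveolar covariate, and 14 to 23 in the other alternatives that kept all libraries and no block. With 1 library left out it ranged from 0 to 791, and it was 0 without any of the 3 KO libraries. The cause was not tested.

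Direction reversed for Notch1 (-0.0917) and Hes1 (-0.0624) with EC-marker scaling, and for Notch1 (-0.07475), Jag1 (-0.10) and Hey1 (0.0667) with the alveolar covariate, all in log2 and all with an adjusted p above 0.8. EC-marker scaling also moved the median of all genes to -0.23. With 1 library left out, members ranged from -0.0835 to 0.30 (Notch1), 0.39 to 1.18 (Notch2), -0.34 to 0.0791 (Notch4), -1.03 to -0.38 (Dll1), 0.44 to 1.09 (Dll4), 0.08 to 0.72 (Jag1), -0.24 to 0.0457 (Jag2) and -0.24 to 0.0273 (Hey1). The ratio differences ranged from -0.13 to 0.66 for Dll4 to Jag1, from -0.15 to 0.30 for Hes1 to Notch1 and from -0.44 to 0.0219 for Hey1 to Notch1. Those of Dll4 and Dll1 to the EC markers ranged from 0.43 to 0.60 and from -1.03 to -0.81.

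The replicate numbers do not pair the samples (correlations of same-numbered deviations -0.08, 0.22 and 0.01). With the replicate number as a block 0 genes passed, Notch members included, instead of 16, and WT library 2 was the only WT library that correlated best with the KO library of its own number.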

Other observations

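Genes of sprouting tip cells, the ECs that lead new vessels and are restrained by Notch, had fitted values above 0 in KO for 8 of 8 genes, with a median of 0.47 on the log2 scale (0.26 without WT library 1, with 7 of 8 above 0, and 0.88 without WT library 3). By edgeR's quasi-likelihood test 3 of 8 had an unadjusted p under 0.05 with higher values in KO, against 5.62% of all genes, and 0 passed after adjustment. With the alveolar covariate 1 of 8 had an unadjusted p under 0.05, with EC-marker scaling 2 of 8, and without WT library 3 5 of 8. Kdr, the gene of VEGF receptor 2, had 93.3, 107.8 and 137.8 CPM in WT, against 264.5, 160.6 and 195.3 CPM in KO. Angpt2, the angiopoietin-2 gene, had 2.79, 4.67 and 7.31 CPM in WT, against 14.4, 7.87 and 10.2 CPM in KO (log2 1.15, SE 0.37, adjusted p 0.383). Cxcr4, a chemokine receptor gene also expressed by leukocytes, had 8.15, 22.5 and 23.1 CPM in WT, against 43.4, 32.3 and 39.6 CPM in KO (log2 1.10, SE 0.36, adjusted p 0.388). All KO values of these 3 genes were above all WT values, as for 8.59% of all genes. The other 5 overlapped between genotypes. The EC markers, which also include Kdr, were above 0 in fitted value for 13 of 15 genes, with a median of 0.12. Without WT library 3 this was 15 of 15 with a median of 0.54. Without WT library 1 it was 6 of 15 with a median of -0.08. A part of EC content in the tip cell values was not tested. The tip cell list was chosen with earlier results of these data known. With EC-marker scaling 6 of 8 tip cell genes were above 0, with total-count scaling and with the alveolar covariate 7 of 8. With either scaling 8 of 8 lay above the median of all genes, which was -0.23 with EC-marker and -0.13 with total-count scaling. The 8 B cell markers summed to 9.45 to 20.5 CPM in WT and 75.7 to 76.9 CPM in KO, and their part in the Cxcr4 result was not tested.

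Immediate early genes, which respond within minutes to handling and to signals, were lower in KO in fitted value for 12 of 13, with a median of -0.41 on the log2 scale. Among them 7 had an unadjusted p under 0.05, all lower, against 4.68% of all genes (4 of 13 without WT library 1, KO library 1 or KO library 3), and 0 passed after adjustment by edgeR. Atf3, a stress-induced transcription factor gene, had 11.5, 14.0 and 14.6 CPM in WT, against 4.90, 2.32 and 3.52 CPM in KO (log2 -1.90, SE 0.27, adjusted p 0.0721). Of the mural genes, Tagln, a contractile protein gene, had 83.8, 68.9 and 84.9 CPM in WT, against 29.3, 37.8 and 46.5 CPM in KO (log2 -1.06, SE 0.19, adjusted p 0.140), while Pdgfrb, the pericyte receptor gene, had 22.3, 39.5 and 52.8 CPM in WT, against 59.7, 43.1 and 70.7 CPM in KO (log2 0.60, SE 0.32, adjusted p 0.544).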
